A study of Mus musculus with 45 samples.

Results

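The dystrophin-glycoprotein complex links the actin cytoskeleton of a muscle cell, across its membrane, to laminin outside. Its levels were followed through 8 genes: Dmd (dystrophin), Utrn (utrophin), Dag1 (dystroglycan), Dtna (alpha-dystrobrevin), Sgca, Sgcb and Sgcd (alpha-, beta- and delta-sarcoglycan) and Sspn (sarcospan). They were chosen by name, and the estimated read counts of each gene's transcripts were added up. These are 8 of the 35675 genes in the files, and all 8 passed the filter on low counts that left 17325 genes to test.

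Bulk RNA-seq had been made of 45 mouse libraries in 15 groups of 3. Every group carried a Pax7-nGFP transgene on a C57BL6;DBA2 background, a nuclear green reporter of Pax7, which marks muscle stem cells. The starting cells were untreated mouse embryonic fibroblasts (MEFs). In MEFs with doxycycline-inducible MyoD, the transcription factor that turns fibroblasts into muscle, cells received doxycycline for 2, 4, 6, 8 or 10 days, alone (MyoD alone, labelled as myotubes) or together with compounds given in the labels only as F/R/C (labelled as fibres and progenitors). The remaining groups were bulk induced myogenic progenitor cells (iMPCs), kept in F/R/C medium after 13 days of doxycycline with F/R/C and described as established clones that no longer need doxycycline, Pax7+ iMPCs purified by cell sorting, primary myoblasts from skeletal muscle in bulk, and sorted Pax7+ myoblasts. Neither the promoter that drives MyoD nor the number of clones or animals is given in the sources used here. Nothing says that replicates came from separate cultures or animals, so p-values measure only the spread between these libraries, which may be technical.

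In muscle, full-length dystrophin binds actin at one end and the dystroglycan protein at the other, and its loss causes Duchenne muscular dystrophy. The sarcoglycans and sarcospan form a membrane subcomplex beside dystroglycan, and alpha-dystrobrevin binds dystrophin and signalling proteins inside the cell. Utrophin is the closest relative of dystrophin. It is made in many tissues, precedes dystrophin in developing muscle and is replaced by it along the fibre as muscle matures. The Dmd gene also has promoters far inside it, which give short proteins that lack the actin-binding end and are common outside muscle.

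Dmd lies on the plus strand of chromosome X from 82948870 to 85206141 in GRCm38. Transcripts from 2 of its starts in RefSeq differed in opposite ways between Pax7+ iMPCs and Pax7+ myoblasts, as given below. The 250 bases before each of these starts (build GRCm38.p6, plus strand, 5′ to 3′) are therefore shown. The first lies at chrX:82948620-82948869, before the long transcript, and the second at chrX:85048045-85048294, inside the gene and before the short transcripts. Neither window overlaps an exon of GENCODE release M21. Capitals mark matches, on either strand, to CANNTG (the E-box that MyoD and its relatives bind), to the CArG box or to the MEF2 motif.

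Dmd long promoter: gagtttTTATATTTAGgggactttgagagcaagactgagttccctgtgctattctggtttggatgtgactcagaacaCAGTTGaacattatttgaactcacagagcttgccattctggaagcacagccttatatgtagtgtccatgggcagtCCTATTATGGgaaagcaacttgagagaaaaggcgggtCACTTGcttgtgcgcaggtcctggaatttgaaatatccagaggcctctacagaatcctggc
Dmd downstream promoter: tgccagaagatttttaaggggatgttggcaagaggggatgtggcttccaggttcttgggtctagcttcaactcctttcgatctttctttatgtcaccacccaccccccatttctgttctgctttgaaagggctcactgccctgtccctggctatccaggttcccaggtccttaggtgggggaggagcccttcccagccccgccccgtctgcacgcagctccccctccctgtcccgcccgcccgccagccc

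The long promoter held E-boxes CAGTTG (173 to 168 bases before the start) and CACTTG (61 to 56 bases before it), a CArG box CCTATTATGG (98 to 89) and a MEF2 motif TTATATTTAG (244 to 235), with no overlap between them. None of these motifs was in the downstream window. Among 32851 RefSeq promoters of the same length, 66.2% held a CANNTG, 1.47% a CArG box and 2.92% a MEF2 motif. GC content was 45.2% in the long promoter and 60.0% in the downstream one, with a median of 52.4% over all promoters. These matches are descriptions of the letters and show no binding.

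Totals ran from 15.6 M estimated reads in the shallowest MEF library to 36.3 M in the deepest bulk iMPC library. The summed level of 12 markers of differentiated muscle was 55.1 to 173 CPM (read counts scaled to library size) in MEFs and 10200 to 46100 CPM in the 30 doxycycline libraries. It was 22500 to 29300 CPM in bulk iMPCs, 1410 to 1950 CPM in Pax7+ iMPCs and 4430 to 15600 CPM in Pax7+ myoblasts. Bulk myoblasts replicate 3 stood apart from its group, with 1170 CPM against 33400 and 19300 CPM. MEF replicate 1 had the most muscle marker RNA of the MEFs, at 173 CPM. The 12 fibroblast markers summed to 20200 to 25300 CPM in MEFs, and the 11 progenitor markers to 1870 to 2120 CPM in Pax7+ iMPCs and 2490 to 3860 CPM in Pax7+ myoblasts, against 378 to 731 CPM in MEFs, where Myf5 and Calcr were at 0. Of the other cell types, Schwann and neural, endothelial, macrophage, epithelial and adipocyte lists of 6 genes each summed to at most 170, 17.0, 11.2, 81.2 and 18.4 CPM in any library. The 6 smooth muscle markers were not low: they summed to 2590 to 4310 CPM in MEFs, to as much as 8390 CPM at day 2 of MyoD alone, and at day 10 to at least 3000 CPM with MyoD alone against 1250 to 1950 CPM with F/R/C. In bulk RNA, a smaller number of cells of one type and less RNA in each of those cells cannot be told apart.

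Read counts of dystrophin rose along both routes, and the rise lay mainly in the long transcript. On counts rescaled to a fixed gene length, given below, the rise was called on neither route. Dmd was 6.73, 16.6 and 16.3 CPM in the MEFs and 107, 169 and 36.7 CPM after 10 days of MyoD alone, with no overlap. With F/R/C for 10 days it was 39.2, 57.8 and 63.7 CPM. By the quasi-likelihood test of edgeR with Benjamini-Hochberg adjustment, the log2 fold change from MEFs was 2.98 ± 0.74 (SE, n = 3 per group; adjusted p = 0.0025) with MyoD alone and 2.02 ± 0.71 (adjusted p = 0.017) with F/R/C. Here and below, a gene was called, or said to rise or fall, where its adjusted p was under 0.05 and its log2 fold change was 1 or more in size. The day 2 changes, 1.59 ± 0.70 and 1.60 ± 0.70, were not called (adjusted p = 0.074 and 0.077).

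A longer transcript yields more reads, so the transcripts were also read per length, in TPM, which scales for both transcript length and library size. All Dmd together was 8.36 ± 2.60 TPM in MEFs (SD, n = 3), 22.5 ± 12.5 TPM at day 10 of MyoD alone and 10.9 ± 2.54 TPM at day 10 with F/R/C. When counts were rescaled to a fixed gene length, the day 10 log2 fold changes fell to 1.46 (adjusted p = 0.058) and 0.48 (adjusted p = 0.51), and neither was called. Without MEF replicate 1, the F/R/C change was 1.79 on counts and was not called either (adjusted p = 0.065).

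The long transcript, Dmd-203 of 14910 bases, was scarce in MEFs, at 0.0485, 0.0953 and 0.291 TPM, or 9.79 to 40.95 estimated reads. It reached 7.51, 13.5 and 2.98 TPM at day 10 of MyoD alone and 3.25, 4.25 and 5.19 TPM with F/R/C. In all 30 doxycycline libraries it lay above every MEF library. Already at day 2 it was 1.31 to 4.54 TPM with MyoD alone and 0.961 to 5.01 TPM with F/R/C. Transcripts from the downstream start, such as Dmd-201 of 4438 bases, were present throughout, at 2.73 to 7.30 TPM in MEFs, 2.93 to 14.1 TPM at day 10 of MyoD alone and 3.87 to 6.18 TPM with F/R/C, so those ranges overlapped. The long transcript exceeded those of the downstream start in 14 of the 30 doxycycline libraries.

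Short transcripts, meaning all those under 10000 bases, held 97.2% to 99.1% of Dmd TPM in MEFs and 40.9% to 80.5% in the doxycycline libraries. Dmd-201 alone held 40.3% in MEFs and 25.4% at day 10 of MyoD alone, and Dmd-203 went from 1.73% to 35.6%. The fragment Dmd-204, of 596 bases near the 3′ end, was 2.51 ± 0.779 TPM in MEFs (SD, n = 3). Kallisto divides a read that fits several transcripts among them, so the split between overlapping transcripts is an estimate. Averaged over the 5 days, the short share with F/R/C minus that with MyoD alone was -5.66 percentage points, and it was lower in 10 of 15 same-numbered pairs (two-sided permutation of labels within days, p = 0.0704, adjusted over 2 tests 0.141).

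**Figure D1:**
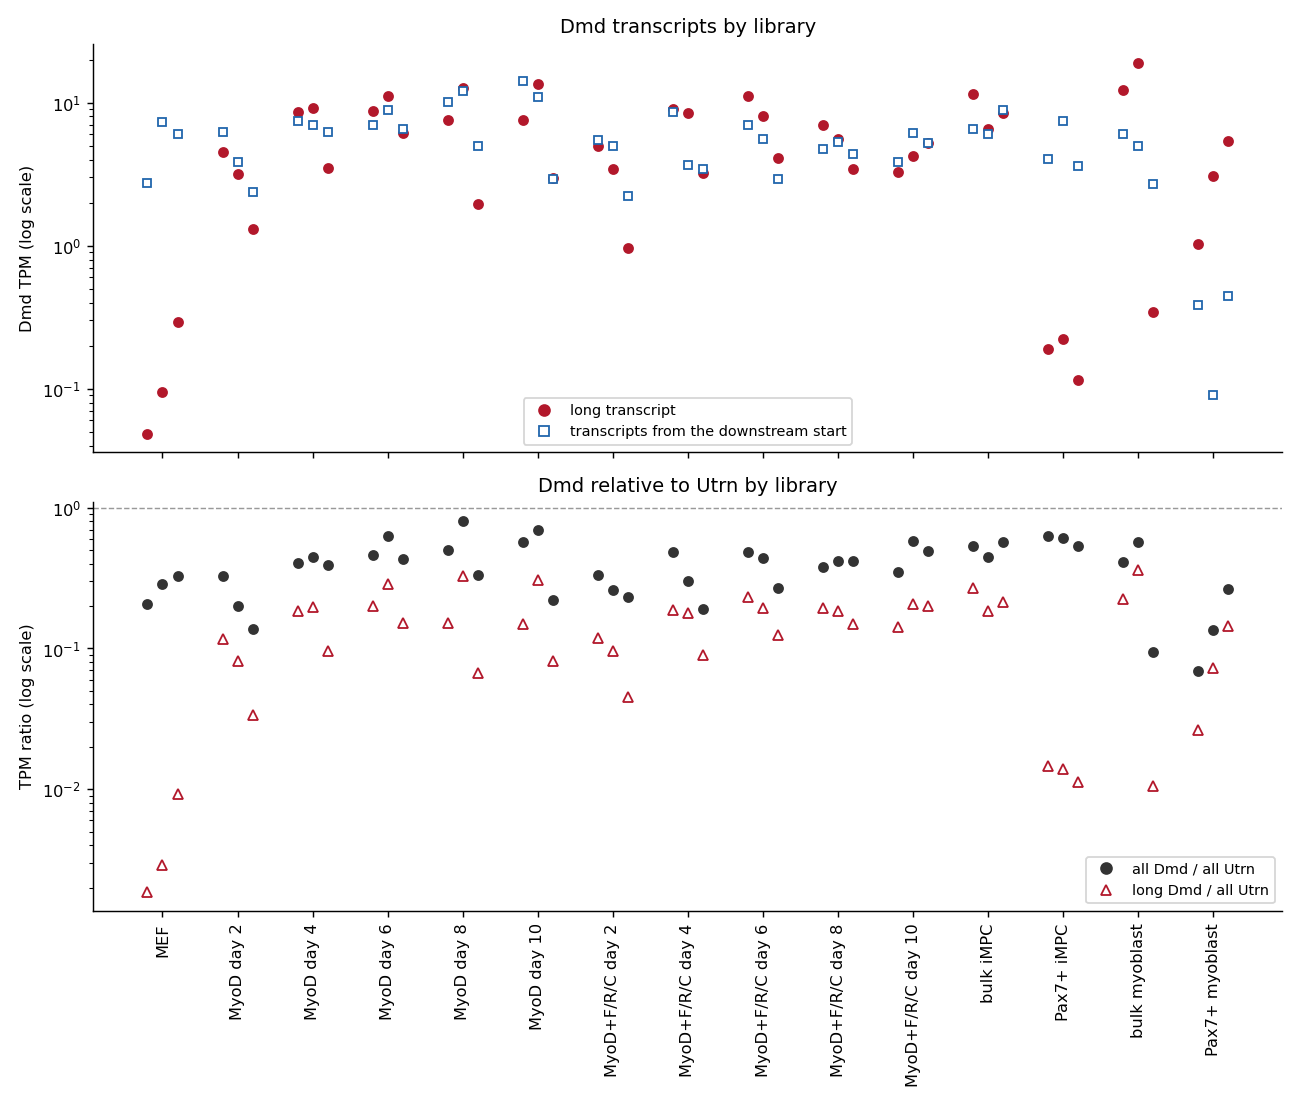
Dmd transcripts (top, TPM on a log axis) and Dmd relative to Utrn (bottom, ratio of TPM on a log axis) in each of 45 libraries, 3 per group, with replicates 1 to 3 from left to right; circles at the top are the long transcript and squares those from the downstream start. The long transcript was at most 0.291 TPM in MEFs and 0.222 TPM in Pax7+ iMPCs, and no total ratio reached the dashed line at 1.

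The 2 kinds of sorted cells differed in the long and the downstream forms of Dmd. In Pax7+ iMPCs the long transcript was 0.189, 0.222 and 0.115 TPM and the downstream ones were 4.05, 7.43 and 3.62 TPM. In Pax7+ myoblasts the long transcript was 1.02, 3.06 and 5.39 TPM and the downstream ones were 0.385, 0.0897 and 0.447 TPM, which rest on 2.62 to 17.6 estimated reads. Neither form overlapped between these groups, and an exact permutation test of 3 against 3 libraries cannot go below p = 0.1. The fragment Dmd-204 held 30.5% of Dmd TPM in Pax7+ iMPCs and 30.7% in Pax7+ myoblasts. Differentiated muscle markers summed to 1410 to 1950 CPM in Pax7+ iMPCs and 4430 to 15600 CPM in Pax7+ myoblasts, and their part was not tested. Dmd summed over its transcripts overlapped, with 9.84, 16.8 and 10.1 CPM against 8.19, 21.7 and 46.9 CPM (log2 fold change -1.06 ± 0.70, adjusted p = 0.22). With counts rescaled to a fixed gene length the sign turned, to 0.36 (adjusted p = 0.64).

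Bulk iMPCs had 11.6, 6.58 and 8.42 TPM of the long transcript, above all Pax7+ iMPC libraries. Their Dmd CPM was 132, 78.6 and 102, and the Pax7+ iMPCs were lower by a log2 fold change of -3.08 ± 0.74 (adjusted p = 9.2e-04). Rescaled to a fixed gene length, this was -1.34 and no longer called (adjusted p = 0.056). Of the 12 differentiated muscle markers, 10 were also lower in Pax7+ than in bulk iMPCs; their part in the Dmd result was not tested. The sorted libraries also differ from the unsorted ones in the effective lengths deposited with them, with a median length minus effective length plus 1 of 180.03 bases against 138 to 153 bases, so the effect of sorting and that of the length setting cannot be told apart.

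Bulk myoblasts were split. Their long transcript was 12.3 and 19.1 TPM in replicates 1 and 2 and 0.346 TPM in replicate 3. Dmd was 129, 165 and 8.55 CPM in the same order. The Pax7+ myoblasts had a log2 fold change of -1.98 ± 0.70 against them (adjusted p = 0.061). Without bulk myoblast replicate 3 it was -2.53 (adjusted p = 0.0099), and without Pax7+ myoblast replicate 3 it was -2.73 (adjusted p = 0.03), both past the threshold. The call thus depended on the choices made. Leaving out any 1 library gave -2.73 to -1.38 (adjusted p 0.0099 to 0.22). The other settings gave -1.98 to -1.42 (adjusted p 0.028 to 0.57). Of these, only DESeq2 called it (-1.95, adjusted p = 0.028).

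Utrophin RNA remained above dystrophin RNA per length in every library. Utrn, on chromosome 10 from 12382188 to 12869365, exceeded Dmd in TPM in 45 of 45 libraries, with a Dmd to Utrn ratio of TPM between 0.0694 and 0.804. The mean ratio was 0.274 ± 0.0623 (SD, n = 3) in MEFs, 0.496 ± 0.245 at day 10 of MyoD alone and 0.473 ± 0.115 at day 10 with F/R/C. For the long Dmd transcript over all Utrn it was 0.00469 ± 0.00403 in MEFs and 0.179 ± 0.115 and 0.183 ± 0.0352 at day 10. Averaged over days, the log2 ratio with F/R/C minus that with MyoD alone was -0.14, with 7 of 15 same-numbered pairs higher (two-sided permutation of labels within days, p = 0.431, adjusted p = 0.431).

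The level of Utrn itself was not called against MEFs at day 2 or day 10 of MyoD alone, and days 4, 6 and 8 were not tested. It was 137, 179.5 and 188.3 CPM in MEFs and 239, 263 and 229.5 CPM at day 2, above every MEF library (log2 fold change 0.53 ± 0.23, adjusted p = 0.068). The libraries of days 4 and 6, at 244 to 325 CPM and 263.0 to 275 CPM, also lay above the MEFs, and those of day 8, at 276, 247 and 168 CPM, overlapped them. It was 279, 268 and 187.9 CPM at day 10 of MyoD alone, so that the lowest treated library fell just under the highest MEF library (log2 fold change 0.54 ± 0.23, adjusted p = 0.074). With F/R/C at day 10 it was 121, 116 and 149 CPM, below all 3 libraries of MyoD alone. That difference, a log2 fold change of -0.93 ± 0.23 (adjusted p = 0.002), passed the p threshold but not the fold threshold. Utrn was lowest in Pax7+ iMPCs, at 75.5, 97.95 and 55.1 CPM, with every library below the 116 to 149 CPM of the next group in the order, day 10 with F/R/C. The largest share of Utrn TPM in MEFs, 63.0%, was Utrn-201 of 12382 bases. Transcripts under 10000 bases held 26.5% ± 9.92 of Utrn TPM in MEFs and 32.1% ± 3.62 at day 10 of MyoD alone (SD, n = 3), and the means of the 15 groups lay between 23.2% and 32.6%. For Dmd this share was 98.4% and 64.3% in the same 2 groups.

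Across the doxycycline groups, replicate 3 had the lowest Dmd in 9 of 10 groups and the lowest Utrn in 8 of 10, and replicate 2 had the highest Sgca in 9 of 10. Samples with the same number therefore deviated alike in these genes, and what they share is not given in the sources used here.

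The sarcoglycans divided into a pair that rose with MyoD and one that did not. Sgca, the alpha subunit found almost solely in striated muscle (chromosome 11 from 94962791 to 94976327), had 0.571 CPM in MEF replicate 1, which is 13 reads, and none in the other 2 MEF libraries. After 2 days of MyoD alone it was 75.5, 111 and 91.0 CPM, and after 10 days 85.3, 225 and 89.5 CPM. With F/R/C it was 44.8, 75.3 and 52.1 CPM at day 2 and 35.3, 46.1 and 52.5 CPM at day 10. Every treated library thus lay above every MEF library. The fitted log2 fold changes from MEFs were 8.74 ± 0.63 and 9.26 ± 0.64 with MyoD alone and 8.05 ± 0.63 and 7.68 ± 0.62 with F/R/C (adjusted p at most 6.0e-11). They lean on the 13 reads of MEF replicate 1, and without that library they were 14.02, 14.54, 13.35 and 13.07 (adjusted p at most 3.2e-11). Such fitted values, against MEF libraries without reads, depend on the default prior count of the fit and bound nothing. The means of these 4 treated groups were 78.1 to 233 times the level in MEF replicate 1.

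Sgcb, the beta subunit (chromosome 5 from 73632749 to 73647790), was already present in MEFs at 19.3, 17.3 and 17.6 CPM. It was 136, 194 and 158 CPM at day 2 of MyoD alone and 91.2, 127 and 103 CPM at day 2 with F/R/C, rises of 3.17 ± 0.31 and 2.57 ± 0.30 on the log2 scale (adjusted p = 2.0e-09 and 9.9e-08). By day 10 the rises were 2.68 ± 0.31 and 2.05 ± 0.30 (adjusted p = 3.7e-08 and 1.2e-06). Over the 15 group means of log2 CPM, Sgca and Sgcb had the highest correlation of any 2 of the 8 genes, r = 0.94. Both were lowest in MEFs, with means of 0.19 CPM for Sgca and 18.05 CPM for Sgcb. The next group up, Pax7+ iMPCs for both, held 19.8 and 50.6 CPM. MEFs may thus weigh heavily in this r, and r without them was not computed.

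Sgcd, the delta subunit, which smooth muscle also uses (chromosome 11 from 46896253 to 47988969), went another way. MEFs held 13.2, 30.2 and 33.8 CPM, and day 10 of MyoD alone held 30.3, 47.5 and 28.3 CPM (log2 fold change 0.46 ± 0.59, adjusted p = 0.59). In the sorted cells Sgcd was almost gone, at 3.81, 1.54 and 0.62 CPM in Pax7+ iMPCs and 0.671, 0.353 and 3.10 CPM in Pax7+ myoblasts. Bulk iMPCs held 36.6, 34.9 and 22.7 CPM, and the Pax7+ iMPCs were lower by a log2 fold change of -3.96 ± 0.69 (adjusted p = 2.2e-05). Bulk myoblasts held 29.7, 15.95 and 1.31 CPM, so that replicate 3 fell within the range of the sorted ones. The fitted difference of the sorted myoblasts was -3.58 ± 0.69 (adjusted p = 0.0011), and it was not called when only those 2 groups were fitted (adjusted p = 0.48). Its correlation with Sgca over group means was 0.04 and with Sgcb 0.15. The 6 smooth muscle markers summed to 171 to 798 CPM in Pax7+ iMPCs and 501 to 744 CPM in bulk iMPCs, ranges that overlapped. Fitted gene by gene, 3 of the 6 were lower in Pax7+ than in bulk iMPCs and none higher, with a median log2 fold change of -1.64; their part in the Sgcd result was not tested.

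Sspn, a tetraspanin-like membrane protein held by the sarcoglycans (chromosome 6 from 145931641 to 145965223), rose on both routes. It was 26.6, 30.3 and 40.1 CPM in MEFs, 98.99, 144 and 65.8 CPM at day 10 of MyoD alone and 61.1, 65.4 and 112 CPM with F/R/C (log2 fold changes 1.67 ± 0.33 and 1.30 ± 0.33, adjusted p = 2.5e-04 and 0.0014). Bulk iMPCs were highest, at 167, 126 and 220 CPM. Its transcripts differed between the cell types. Sspn-203, which starts upstream of the main form at base 145931641, was at most 0.00627 TPM in MEFs. It was 12.4, 27.8 and 17.0 TPM in Pax7+ iMPCs, 24.5, 20.4 and 31.9 TPM in bulk iMPCs, 8.5, 17.3 and 4.06 TPM in bulk myoblasts and 19.2, 49.5 and 29.6 TPM in Pax7+ myoblasts. In the doxycycline libraries it reached at most 5.89 TPM and was listed at or near 0 in some of them, so that bulk myoblast replicate 3 lay within their range. The main form, Sspn-201, was 10.5 to 15.3 TPM in MEFs and 7.25 to 13.2 TPM in Pax7+ myoblasts, so the share of Sspn-203 in the latter was 71.2% to 79.0%, against 30.2% to 59.1% in Pax7+ iMPCs.

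**Figure D2:**
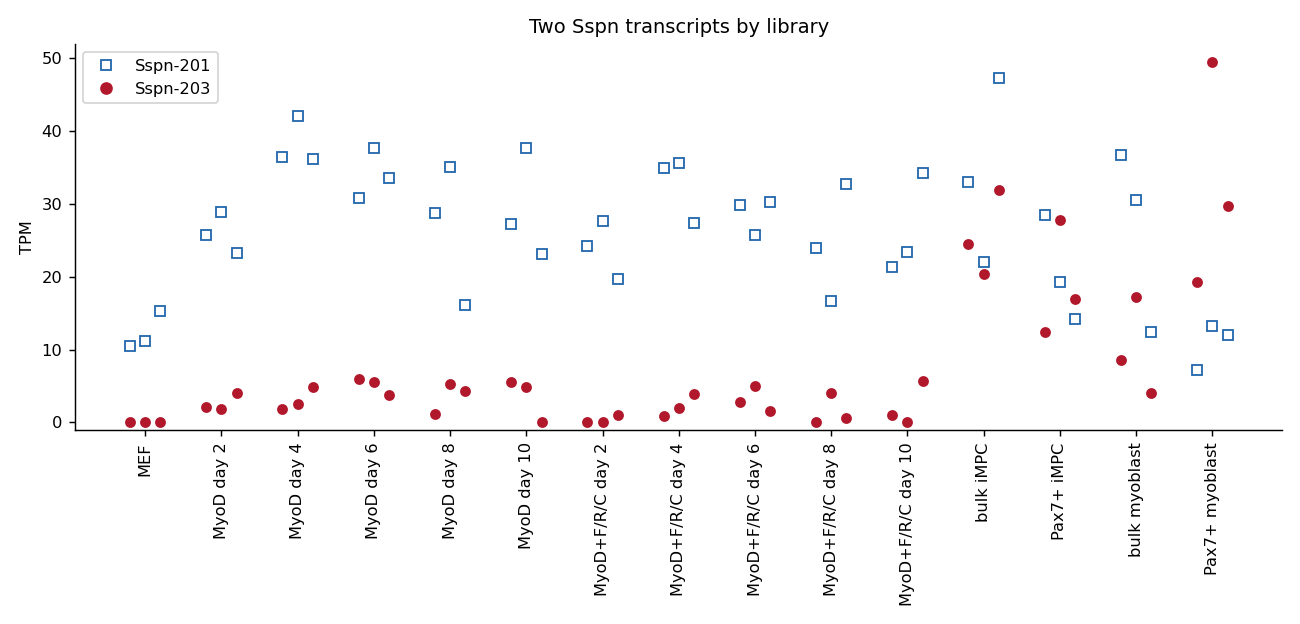
TPM (linear axis) of the Sspn transcripts Sspn-201 (squares) and Sspn-203 (circles) in each library of the 15 groups, 3 per group. Sspn-203 lay between 12.4 and 49.5 TPM in all libraries of bulk iMPCs and of both sorted groups, and at most 5.89 TPM in MEFs and in the doxycycline libraries; bulk myoblasts lay between 4.06 and 17.3 TPM.

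Dag1 encodes the laminin receptor of the complex, whose alpha and beta chains are cut from 1 precursor (chromosome 9 from 108204634 to 108263958). It was the most abundant of the 8 genes per length in MEFs, at 88.8 to 90.8 TPM. It was highest early in MyoD alone, with 249, 257 and 253 CPM in MEFs, 707, 896 and 861 CPM at day 2 and 430, 487 and 332 CPM at day 10. The rise at day 2 was 1.70 ± 0.34 on the log2 scale (adjusted p = 2.3e-04). Day 10 against MEFs was 0.72 ± 0.33 (adjusted p = 0.10) and day 10 against day 2 was -0.98 ± 0.33 (adjusted p = 0.055), although the libraries of day 10 all lay below those of day 2. With F/R/C the day 2 libraries had 380, 422 and 371 CPM and the day 10 ones 359, 496 and 564 CPM. The changes from MEFs were 0.63 ± 0.33 (adjusted p = 0.15) and 0.90 ± 0.33 (adjusted p = 0.024), the second under the fold threshold. Pax7+ iMPCs, with 327, 665 and 955 CPM, overlapped bulk iMPCs, with 567, 485 and 699 CPM (log2 fold change 0.15 ± 0.33, adjusted p = 0.73).

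Dtna, alpha-dystrobrevin (chromosome 18 from 23415135 to 23659715), rose on both routes and was low again in Pax7+ iMPCs. MEFs had 6.07, 25.9 and 17.5 CPM, day 10 of MyoD alone 81.5, 167 and 59.9 CPM, and day 10 with F/R/C 36.6, 34.0 and 90.8 CPM. The log2 fold changes were 2.64 ± 0.51 (adjusted p = 1.7e-04) and 1.71 ± 0.49 (adjusted p = 0.0042). The largest share of Dtna TPM was Dtna-202 of 6295 bases in MEFs, 54.7%, and Dtna-201 of 1596 bases at day 10 of MyoD alone, 50.4%. Bulk iMPCs had the highest Dtna, 232, 165 and 209 CPM, and Pax7+ iMPCs the lowest, 11.4, 18.8 and 4.19 CPM, with no overlap (log2 fold change -4.14 ± 0.54, adjusted p = 4.4e-07). Over group means, the member closest to Dmd was Dtna, r = 0.85, and Dtna correlated with Utrn at r = 0.83. These points are the 15 groups described above, so no p is given.

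**Figure D3:**
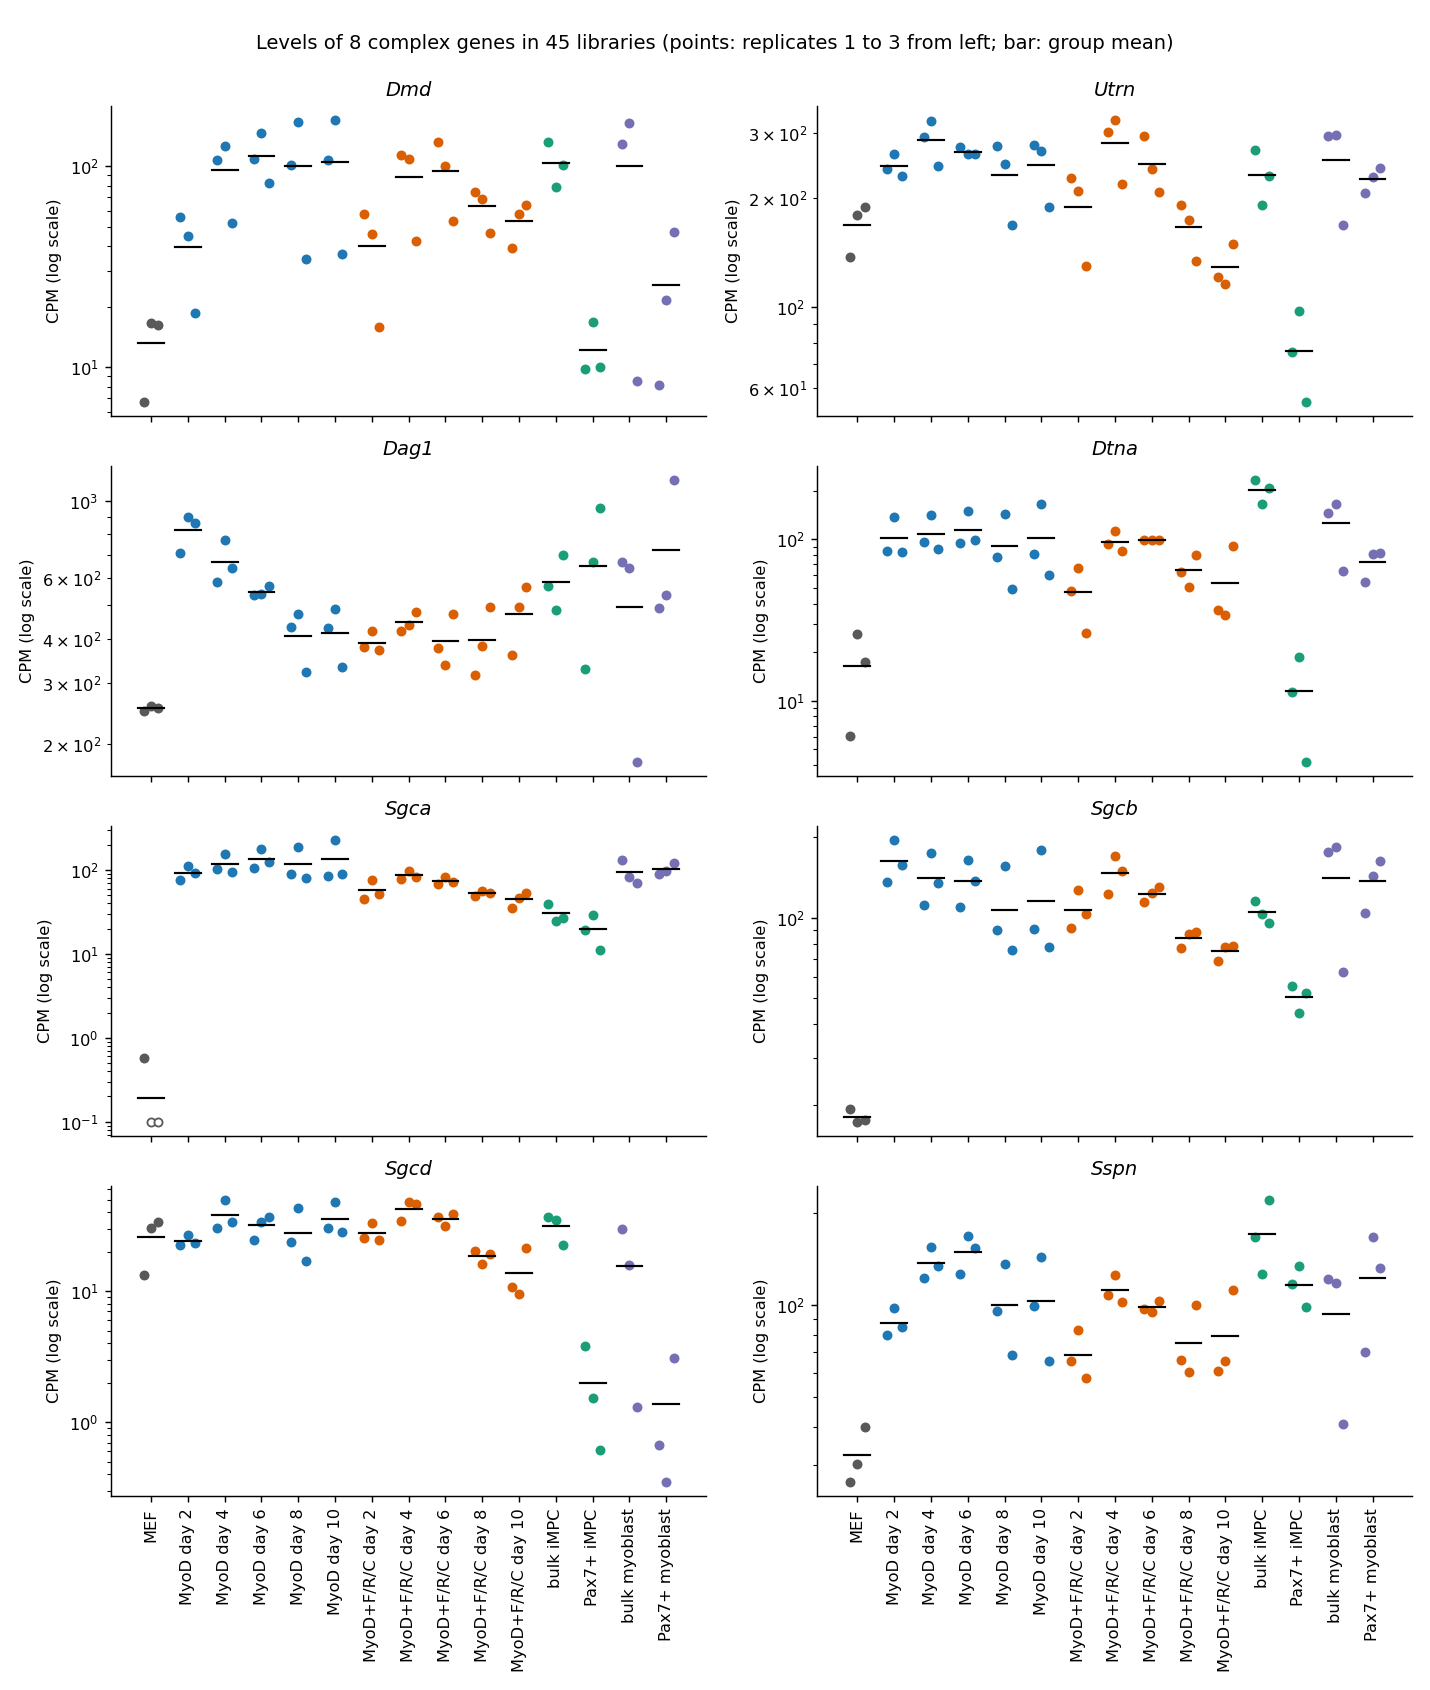
CPM (log axes, 1 panel per gene) of the 8 genes in each library, 3 per group, with the group mean as a bar; open circles for Sgca are MEF libraries without reads, drawn at 0.1. By group mean, Sgca, Sgcb, Sspn and Dag1 were lowest in MEFs, Dmd, Dtna and Utrn in Pax7+ iMPCs, and Sgcd in the sorted groups.

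Counted as a list, 5 of the 8 genes rose from MEFs to day 2 of MyoD alone and none fell (Dag1, Dtna, Sgca, Sgcb, Sspn), where 12.3% of all 17325 genes rose. At day 10 there were again 5 that rose, with Dmd in place of Dag1, where 14.3% of all genes rose. With F/R/C, 4 rose at day 2 (Dtna, Sgca, Sgcb, Sspn, where 11.5% of all genes rose) and 5 at day 10 (these and Dmd, where 19.0% rose). On length-scaled counts, Dmd was not called at day 10 on either route. The median log2 fold change of the 8 was 1.65 and 2.15 with MyoD alone and 1.30 and 1.502 with F/R/C, against 0.00, 0.01, 0.00 and 0.08 over all genes. All these comparisons share the MEF libraries. Leaving out MEF replicate 1 or replicate 2 of day 2 with F/R/C lowered that count of 4 to 2, since Dtna and Sspn were then not called. All 12 differentiated muscle markers were higher in each of the 4 comparisons, and fibroblast markers fell in 6, 4, 3 and 7 of 12; their part in the results for the 8 genes was not tested. From day 2 to day 10 none of the 8 was called on either route, with 6.26% of all genes called for MyoD alone and 16.0% with F/R/C. In each of these, 1 of the 8 had an unadjusted p under 0.05 in edgeR, and the share of all genes at that cutoff is not given. DESeq2 called 0 of the 8 on either route.

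Between the routes, no member was called in the average over days. Over the 5 days, all 8 genes had a negative log2 fold change with F/R/C against MyoD alone, with a median of -0.39 against -0.03 over all genes, and none reached the fold threshold, where 22.1% of all genes were called. For 6 of the 8 the adjusted p was under 0.05, as it was, with a negative fold change of any size, for 32.8% of all genes. The largest was Sgca at -0.95 ± 0.18 (adjusted p = 3.7e-05), followed by Dtna at -0.58 ± 0.21 (adjusted p = 0.018). Sspn, Dag1, Utrn and Sgcb lay between -0.40 and -0.33, and Dmd (-0.39, adjusted p = 0.27) and Sgcd (-0.28, adjusted p = 0.38) did not pass. The fit took libraries of different days as independent, although replicate 2 had the highest Sgca in all 5 groups of MyoD alone. If same-numbered libraries form series, these standard errors and p-values may be too small. At day 2, Dag1 was called lower, with a log2 fold change of -1.07 ± 0.34 (adjusted p = 0.042), where 2.80% of all genes were called lower. That call was lost without any single library of the compared groups and with library totals, with no filter or with length-scaled counts (adjusted p 0.053 to 0.15). At day 10, Sgca was called lower at -1.58 ± 0.41 (adjusted p = 0.0029), where 13.4% of all genes were called lower. Without replicate 2 of MyoD alone, its highest library, the difference was -0.87 (adjusted p = 0.092). None of the 8 had a called change in the size of the F/R/C effect between days 2 and 10, where 6.01% of all genes were called. An unadjusted p under 0.05 was reached by 1 of the 8, and that share over all genes is not given. DESeq2 called Dag1 in this comparison (1.31, adjusted p = 0.047). In the average over days, 0 of 12 differentiated muscle markers were called, 4 of 12 fibroblast markers were higher and 3 lower, and 1 of 6 smooth muscle markers was higher and 2 lower. At day 10, 3 of the 6 smooth muscle markers were lower with F/R/C and none higher (median log2 fold change -1.21); the part of these markers in the results for the 8 genes was not tested.

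Established bulk iMPCs exceeded day 10 with F/R/C in Dtna, at 1.91 ± 0.49 (adjusted p = 0.0056), and Sspn, at 1.11 ± 0.33 (adjusted p = 0.015), where 3.33% of all genes were called higher. The Sspn call was lost without bulk iMPC replicate 3 (0.87) or without replicate 1 or 2 of day 10 with F/R/C (0.95 and 0.98), and when only these 2 groups were fitted (adjusted p = 0.053). Utrn was 0.84 ± 0.23 higher (adjusted p = 0.0093), under the fold threshold. Against bulk myoblasts, bulk iMPCs had less Sgca, 39.7, 24.6 and 27.1 CPM against 131, 81.3 and 69.4 CPM, with no overlap (log2 fold change -1.63 ± 0.41, adjusted p = 0.0029; 8.70% of all genes called lower). Without bulk myoblast replicate 1, Sgcd (1.85) and Sspn (1.10) were called as well, and Sspn was also called without bulk myoblast replicate 2 (1.10) or bulk iMPC replicate 2 (1.06). Fibroblast markers were higher in bulk iMPCs for 11 of 12 and lower for 1. The share of all genes called higher in this comparison is not given. The part of these markers in the differences from bulk myoblasts was not tested.

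Pax7+ iMPCs had less of much of the complex than either comparison group. Against bulk iMPCs, 5 of the 8 were lower (Dtna, Sgcd, Dmd, Utrn and Sgcb) and none higher, where 20.5% of all genes were called lower. Utrn differed by -1.60 ± 0.24 (adjusted p = 2.5e-06). Sgcb, with 55.5, 44.0 and 52.3 CPM against 116, 104 and 95.5 CPM, was near the fold threshold at -1.05 ± 0.29 (adjusted p = 0.0033). It fell short of that threshold with library totals (-0.98), without Pax7+ iMPC replicate 2 (-0.91) or without bulk iMPC replicate 1 (-0.96). Over all genes, this comparison had a median of -0.13 on the log2 scale. With length-scaled counts 3 of the 5 were called, all but Dmd and Sgcb. In the same comparison 10 of 12 differentiated muscle markers, 7 of 12 fibroblast markers (median log2 fold change -3.36) and 3 of 6 smooth muscle markers were lower and none of these higher; their part was not tested. Against Pax7+ myoblasts, 4 were lower and none higher, where 17.6% of all genes were called lower. These were Dtna (-2.65 ± 0.51, adjusted p = 7.4e-05), Sgca (-2.37 ± 0.43, adjusted p = 3.2e-05), Utrn (-1.56 ± 0.24, adjusted p = 2.6e-06) and Sgcb (-1.44 ± 0.29, adjusted p = 1.5e-04). Sgca was 19.0, 29.2 and 11.1 CPM in Pax7+ iMPCs and 89.1, 97.6 and 121 CPM in Pax7+ myoblasts. Differentiated muscle markers were lower for 9 of 12 in this comparison, and their part was not tested. Both comparisons rest on the same Pax7+ iMPC libraries. In Pax7+ against bulk myoblasts, Sgcd was the 1 member called, lower in the sorted cells (4.03% of all genes called lower). An added test of whether sorting changed levels differently in iMPCs and in myoblasts called Dtna (-3.34 ± 0.69, adjusted p = 4.7e-04) and Utrn (-1.43 ± 0.33, adjusted p = 0.0012), where 14.2% of all genes were called lower.

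**Figure D4:**
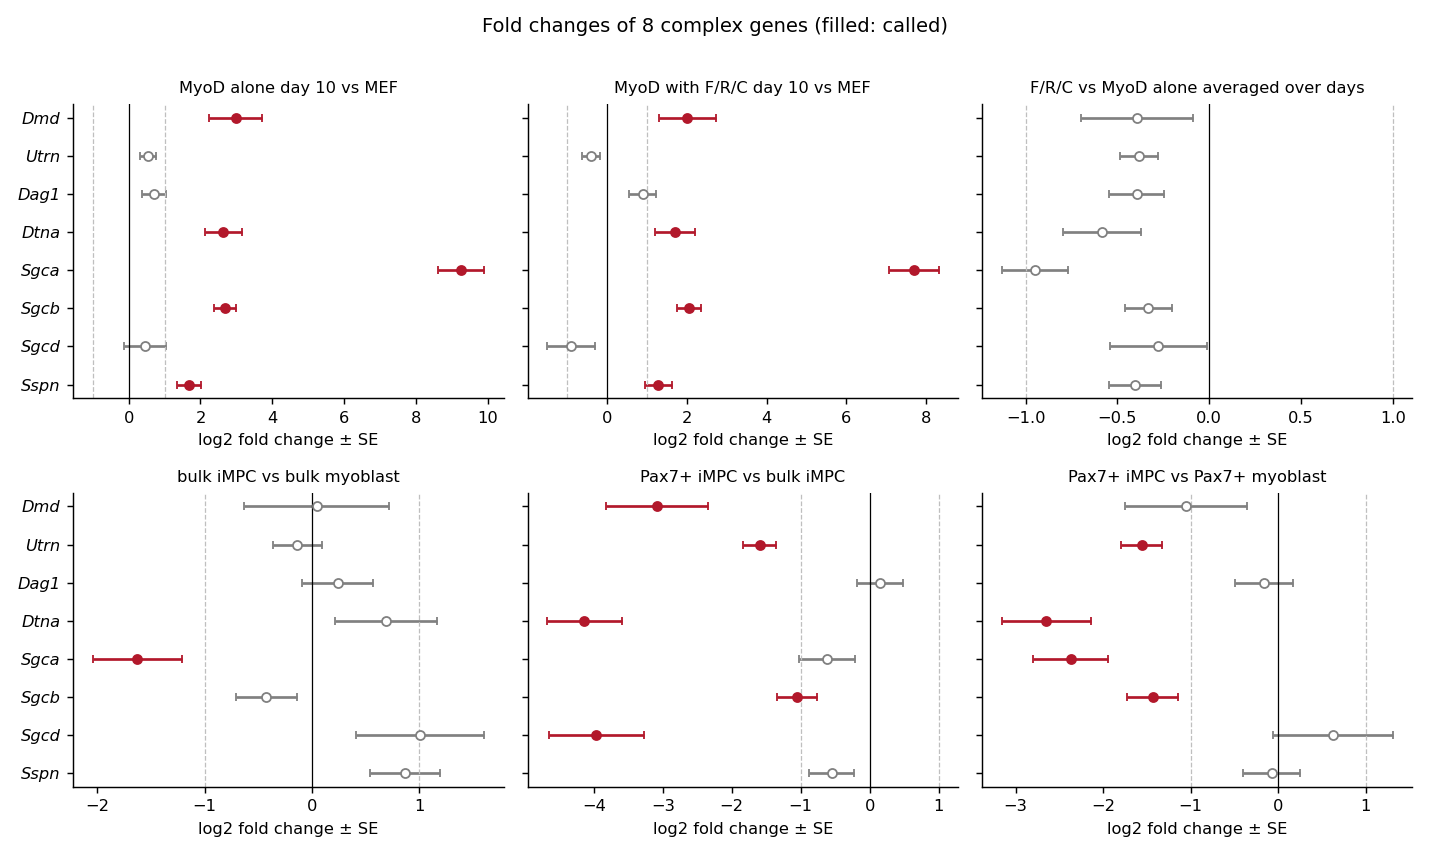
Log2 fold changes of the 8 genes with their standard errors in 6 comparisons of the fit (first-named group over second; x axes differ in range), 3 libraries per group or 15 per arm in the average over days. Filled points were called, and dashed lines mark a log2 fold change of 1 in either direction. In the average over days all 8 points lie below 0, none past the dashed line.

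The order of the 15 groups was mostly not resolved between neighbours. For Dmd, the ranges of 14 of 14 neighbouring groups overlapped, from a mean of 112 CPM at day 6 of MyoD alone to 12.2 CPM in Pax7+ iMPCs, a 9.15-fold span. Neighbours overlapped in 13 of 14 for Utrn, Dag1, Sgca, Sspn and Dtna, 12 of 14 for Sgcd and 11 of 14 for Sgcb. For Sgca, Sgcb, Sspn and Dag1, every MEF library lay below every library of the next group in the order. The genes whose group means followed Dmd most closely were Txlnb (r = 0.97), Cmya5 (r = 0.96) and Epm2a (r = 0.96), and for Utrn they were Rabgef1 (r = 0.98), Wipi1 (r = 0.96) and Pbxip1 (r = 0.95), each over 15 group means.

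Genes that work with the complex were followed as a list of 16, of which 14 were tested. They include the syntrophins that tie it to signalling proteins, caveolin-3 (Cav3), neuronal nitric oxide synthase (Nos1), dysferlin (Dysf) and the matrix proteins Lama2, Agrn and Bgn. From MEFs, 6 were higher and 2 lower at day 2 and 5 higher and 0 lower at day 10 of MyoD alone. Of all genes, 12.3% and 14.3% were called higher in these comparisons. With F/R/C, 6 were higher and 1 lower at day 2 and 7 higher and 3 lower at day 10, where 11.5% and 19.0% of all genes were called higher. Shares of all genes called in the opposite direction are not given, here or for the comparisons of Pax7+ cells below. Cav3, a membrane protein of muscle, went from a mean of 0.0293 CPM in MEFs to 252 CPM at day 10 of MyoD alone and 87.0 CPM with F/R/C. Sntb1, beta1-syntrophin, was higher with F/R/C than with MyoD alone over the days (log2 fold change 1.84 ± 0.27, adjusted p = 7.0e-07), whereas Bgn, the matrix protein biglycan, was lower (-3.01 ± 0.52, adjusted p = 7.4e-06), and so was the scarce Sntg1 (-1.78 ± 0.56, adjusted p = 0.0069). These and Cav3 made 1 higher and 3 lower of the 14, where 22.1% of all genes were called in either direction.

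In Pax7+ iMPCs against bulk iMPCs, 5 of the 14 partners were lower and 3 higher, where 20.5% of all genes were called lower. Dysf, which takes part in membrane repair, had a log2 fold change of -5.22 ± 0.52 (adjusted p = 6.1e-09) and Sntb1 -4.05 ± 0.67 (adjusted p = 1.2e-05). Against Pax7+ myoblasts, 2 were higher and 5 lower, where 17.6% of all genes were called lower. The partners were led by Nos1 at 5.20 ± 0.64 (adjusted p = 1.2e-07), with 24.8 CPM against 0.679 CPM, and by Dysf at -4.41 ± 0.50 (adjusted p = 2.6e-08).

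Dystroglycan must be glycosylated to bind laminin, and 15 of 16 listed genes of that pathway were found and tested. At day 10 of MyoD alone and at either day with F/R/C none was called against MEFs, with 4, 7 and 8 of the 15 at an unadjusted p under 0.05 in edgeR. The shares of all genes at that unadjusted p are not given, so these counts cannot be judged against them. Day 2 of MyoD alone is not reported here for this list. At day 10, F/R/C against MyoD alone, Gmppb, which takes part in making the sugar donor GDP-mannose, was 1 of 2 genes called lower (log2 fold change -1.03 ± 0.16, adjusted p = 1.6e-05). In that comparison 13.4% of all genes were called lower. Of the 15, 12 had a negative fold change, with a median of -0.61 against -0.07 over all genes. An adjusted p under 0.05 at any fold was reached by 8 of the 15, and that share over all genes is not given. In Pax7+ iMPCs Dpm3, a subunit of the enzyme that makes dolichol-phosphate mannose, was higher than in bulk iMPCs (2.24 ± 0.33, adjusted p = 2.7e-06) and than in Pax7+ myoblasts (1.10 ± 0.32, adjusted p = 0.0053), and no gene of the list was lower.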

How the data were processed

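Per the labels, polyadenylated RNA was made into stranded libraries and read from 1 end in all 45 samples. The submitters' processing notes name bcl2fastq 2.19, Trimmomatic 0.36, kallisto 0.44, edgeR 3.28 and the build GRCm38.p6. Per the file headers, the authors deposited TPM and estimated counts for each transcript, beside its length and effective length. Of 121843 transcripts, 121104 matched GENCODE M21 and held 99.36% to 99.78% of each library's reads.

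Here the deposited estimated counts were summed per gene and rounded, genes with low counts were removed (filterByExpr), and libraries were scaled by TMM. A quasi-likelihood model with 1 mean per group was fitted to all 45 libraries (edgeR 4.0.16 in R 4.3.3, 30 residual degrees of freedom, default prior count). The p-values were adjusted by Benjamini-Hochberg over the 17325 genes tested. A prior count of 2 was used only for log2 CPM, as in the correlations over group means. Because long transcripts give more reads, counts of Dmd depend on which transcripts are present. TPM ratios carried a pseudocount of 0.1 on the log2 scale and were tested with 100000 permutations of labels within days. These permutations also took libraries of different days as independent. Total depth was 15.6 to 36.3 M reads. The scripts were tested on simulated data.

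The 8 genes and all lists were chosen with earlier results of these data known. The text names the 8 genes in every comparison and, from each list, those with the largest called changes (up to 3 per list and comparison), of which some are not reported here. Replicate numbers paired the samples, by correlations of their deviations over 0.1 in every pair, for day 10 against day 2 of MyoD alone (0.201 to 0.416) and for F/R/C against MyoD alone at day 2 (0.346 to 0.375). Adding the replicate block left these counts of called genes at 0 and 1. Alternatives were RLE scaling, library totals, no filter, no fold threshold, length-scaled counts, a fit of the compared groups only, DESeq2 1.42.0, the replicate block and leaving out each library.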

Additional observations from a re-analysis of the deposited data

Results flagged for a closer look

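The difference between Pax7+ and bulk cells was compared between iMPCs and myoblasts by an interaction term in the same model (edgeR, Benjamini-Hochberg), a test added after the data were seen. It differed for Dtna, with a log2 value of -3.34 ± 0.69 (adjusted p = 4.7e-04), and for Utrn, with -1.43 ± 0.33 (adjusted p = 0.0012). Dtna was lower in Pax7+ than in bulk iMPCs by a log2 fold change of -4.14, and the same difference in myoblasts was -0.80 (adjusted p = 0.29). For Utrn these values were -1.60 and -0.17 (adjusted p = 0.69 in myoblasts). The summed level of the 12 differentiated muscle markers was 1410 to 1950 CPM in Pax7+ iMPCs and 22500 to 29300 CPM in bulk iMPCs, and 6 of the 12 had a lower interaction term; their part in these results was not tested. Bulk myoblast replicate 3, with little muscle marker RNA, is among the libraries behind both terms.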

How the results depend on the processing

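Of 1635 alternative values for the single genes, 1572 kept their direction and side of the threshold, 29 lost it, 24 gained it and 10 reversed. They cover 105 results. Results with the smallest main fold changes were left out, so reversals among them are counted neither here nor below. Counts of called members that moved by over 1.5 times were these. With library totals, with no filter and with length-scaled counts, the count for F/R/C against MyoD alone at day 2 went from 1 to 0. With no minimum fold, it went from 1 to 2 for F/R/C at day 10, from 0 to 6 for the average over days and from 1 to 2 for bulk iMPCs against bulk myoblasts. With only the compared groups in the fit, it went from 1 to 2 for F/R/C at day 10, from 0 to 2 for the change of the F/R/C effect, from 2 to 1 for bulk iMPCs against day 10 with F/R/C and from 1 to 0 for Pax7+ against bulk myoblasts. DESeq2 gave 1 and 2 for the change of the F/R/C effect and for Pax7+ against bulk myoblasts. Length-scaled counts gave 3 in place of 5 for Pax7+ against bulk iMPCs. The causes were not tested. Smaller moves were from 5 to 4 with length-scaled counts for day 10 against MEFs on both routes, from 5 to 6 and from 4 to 3 with only the compared groups for day 2 against MEFs (MyoD alone, then F/R/C), and from 5 to 4 for Pax7+ against bulk iMPCs with the same fit and with library totals. With no minimum fold, 5 became 6 for day 10 with F/R/C against MEFs and 2 became 3 for bulk iMPCs against day 10 with F/R/C. The interaction went from 2 to 3 with library totals and with length-scaled counts.

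The mean log2 Dmd to Utrn ratio of F/R/C against MyoD alone, -0.14, reversed to 0.06 on estimated counts (permutation p = 0.764) and to 0.078 for Dmd transcripts of at least 10000 bases (permutation p = 0.733). With length-scaled counts, Dmd reversed to 0.36 in Pax7+ iMPCs against Pax7+ myoblasts and to 0.082 in the interaction of sorting and cell type. The median of all genes moved by over 0.1 with library totals, for example to -0.19 at day 2 of MyoD alone and 0.15 at day 10 with F/R/C, both against MEFs.

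Leaving out 1 library gave counts of 5 to 5 from MEFs to day 2 and to day 10 of MyoD alone, 2 to 5 and 4 to 6 with F/R/C, and 0 to 0 from day 2 to day 10 on both routes. For F/R/C against MyoD alone it gave 0 to 0 at day 2, 0 to 2 at day 10, and 0 to 0 for the average and for the change of the effect. It gave 1 to 2 for bulk iMPCs against day 10 with F/R/C, 1 to 3 against bulk myoblasts, 4 to 5 for Pax7+ iMPCs against Pax7+ myoblasts and against bulk iMPCs, 1 to 2 for Pax7+ against bulk myoblasts and 2 to 4 for the interaction. The ratio ran from -0.27 to -0.02 and the short share from -8.03 to -3.74 points (permutation p 0.0225 to 0.242). Direction reversed for Sgca from day 2 to day 10 of MyoD alone (-0.078 to 0.75), Sspn under F/R/C at day 10 (-0.55 to 0.038), Sgcd in Pax7+ iMPCs against Pax7+ myoblasts (-0.24 to 1.95), and Dag1 (-0.76 to 0.11) and Sgcd (-1.24 to 0.95) in the interaction.

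With the replicate block the count for the interaction went from 2 to 3 and no other count changed, the ratio stayed at -0.14 (permutation p = 0.39) and the short share was -5.66 points (permutation p = 0.0502). Scarce transcripts limit what can be said of the long Dmd form in MEFs and of the downstream forms in Pax7+ myoblasts.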
